A study of Medicago truncatula with 15 samples.

Results

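The RNA-seq libraries of the Medicago Mtsoc1 study were examined for 2 SVP-like MADS-box genes, MtSVPc (locus Medtr5g066180) and a gene annotated SVP/AGL24 (locus Medtr4g093970). The members were chosen by locus, and each locus had 1 transcript, so 2 of 50021 loci and 2 of 57124 transcripts are described. Both passed the filter on low counts in all 8 comparisons made. All plants were of the R108 background and were grown under vernalized long days, which induce flowering, and 5 groups had 3 libraries each. Mtsoc1a leaf, WT leaf, Mtsoc1a apex and WT apex came from plants 15 days old, and the triple mutant apex came from non-flowering plants 83 days old. Mtsoc1a carries a Tnt1 retrotransposon insertion in the floral integrator gene MtSOC1a. The triple mutant was made with CRISPR-Cas9 guides against MtSOC1a, MtSOC1b and MtSOC1c, and was 1 edited line. A leaf library pooled 2 fully expanded trifoliate leaves from different plants, and an apex library pooled shoot apices of 3 plants. The labels place the upper stem with the apex in the triple mutant, whereas the study's methods place it there in the plants 15 days old. Genotype, plant age, library preparation and the dissected tissue cannot be told apart for the triple mutant.

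MADS-box genes encode transcription factors that bind DNA as dimers and control flowering time, the identity of meristems and the identity of floral organs. In Arabidopsis, SVP, short for Short Vegetative Phase, delays flowering by repressing FT and SOC1, whereas its close relative AGL24, for Agamous-like 24, promotes flowering and acts together with SOC1. Both Arabidopsis genes also act in young floral meristems, where they hold back the genes that specify floral organs.

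Sequences at hand for these loci were the 2 RT-qPCR primers of MtSVPc listed by the study, which tie that gene name to the locus counted here. They are shown 5′ to 3′ and were 20 and 22 bases long:
MtSVPc forward primer: ggtcagcagtcccaccacat
MtSVPc reverse primer: tcatcccccttagttgttgggt

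Library totals ranged between 13224488 and 15891830 estimated counts in the triple mutant and between 30574845 and 38896407 in the 12 libraries of plants 15 days old. Levels are given as CPM (counts per 1000000 of the library) scaled by TMM, a method that corrects for differences in library composition, and SDs are over 3 libraries. MtSOC1a checked the Mtsoc1a label: its first transcript had 0 to 5 counts in Mtsoc1a leaf against 103 to 139 in WT leaf, and 0 to 29 in Mtsoc1a apex against 348 to 536 in WT apex. The triple mutant had 230 to 294 counts in its smaller libraries. As CPM this transcript was at 13.4 ± 1.60 there, against 9.28 ± 2.30 in WT apex. Since edits within exons need not remove a transcript, this does not check the triple label. The summed CPM of 24 photosynthesis transcripts, used as leaf markers, was 7547 to 9718 in Mtsoc1a leaf, 4564 to 5202 in WT leaf, 904 to 1671 in the triple mutant apex, 281 to 415 in Mtsoc1a apex and 240 to 398 in WT apex. That term was chosen by the study on the triple mutant and WT apices, so it is not independent evidence for them. The shoot meristem gene HDL, a WUSCHEL homolog, had 0 counts in every leaf library and every triple mutant library, 0 to 6 counts in Mtsoc1a apex and 4 to 14 counts in WT apex.

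MtSVPc was an apex transcript in these libraries. It had 31, 68 and 12 counts in the Mtsoc1a leaf libraries and 39, 29 and 18 counts in the WT leaf libraries. It had 610, 611 and 708 counts in the triple mutant apex, 1573, 1352 and 1016 counts in Mtsoc1a apex, and 921, 865 and 937 counts in WT apex. Every apex library lay far above every leaf library, also in the triple mutant, which was sequenced less deeply.

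On the CPM scale, MtSVPc was at 1.67 ± 1.35 in Mtsoc1a leaf and 1.24 ± 0.357 in WT leaf, and at 34.1 ± 2.80 in the triple mutant apex, 29.9 ± 5.44 in Mtsoc1a apex and 19.8 ± 2.20 in WT apex. In both tissues the WT mean was the lowest. The triple mutant libraries (30.9 to 36.0) overlapped those of Mtsoc1a apex (23.8 to 34.0). Mtsoc1a apex did not overlap WT apex (18.0 to 22.2), and the leaf groups overlapped each other (0.484 to 3.14 in Mtsoc1a, 0.842 to 1.53 in WT). The share of all transcripts whose groups do not overlap was not counted, here or for SVP/AGL24. In leaf the spread was widest in Mtsoc1a, where replicate 2 had more than the other libraries.

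SVP/AGL24 had the opposite tissue pattern and a narrower range. It had 521, 448 and 526 counts in Mtsoc1a leaf and 460, 433 and 448 counts in WT leaf. It had 189, 177 and 186 counts in the triple mutant apex, 126, 182 and 178 counts in Mtsoc1a apex, and 290, 499 and 292 counts in WT apex. Among the plants 15 days old, only WT apex replicate 2 reached the counts of the leaf libraries.

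The CPM of SVP/AGL24 was 21.8 ± 1.43 in Mtsoc1a leaf, 19.7 ± 1.44 in WT leaf, 9.76 ± 0.602 in the triple mutant apex, 3.73 ± 0.874 in Mtsoc1a apex and 7.89 ± 2.84 in WT apex. The order was thus both leaf groups, then the triple mutant and WT apices, then Mtsoc1a apex. Both leaf groups overlapped (20.7 to 23.4 in Mtsoc1a, 18.1 to 20.9 in WT). The triple mutant libraries (9.28 to 10.4) lay within the range of WT apex (5.66 to 11.1). Mtsoc1a apex (2.73 to 4.31) lay below both other apex groups.

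**Figure D1:**
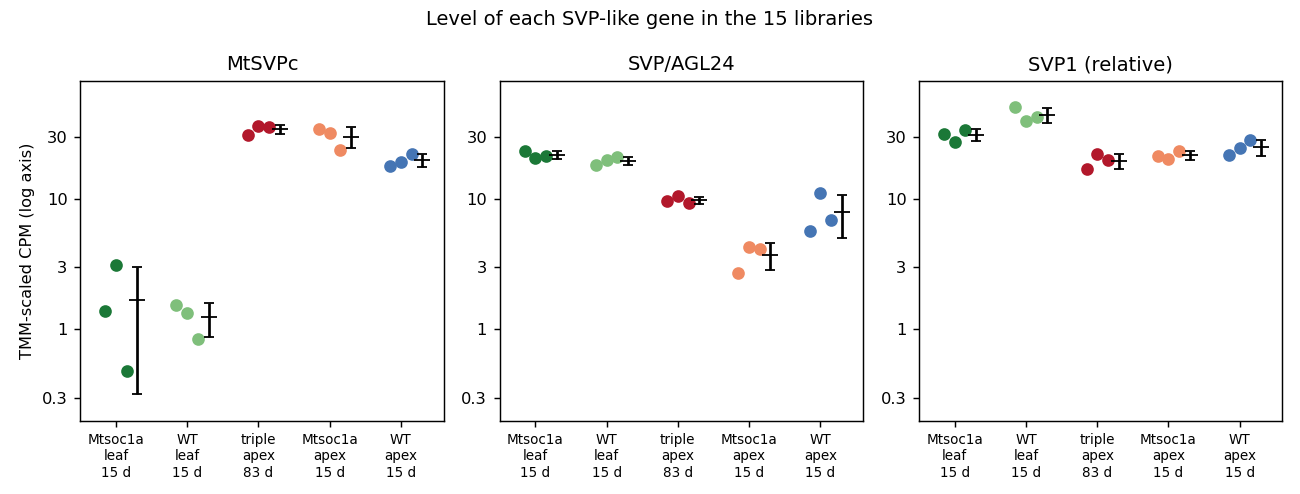
TMM-scaled CPM (log axis) of MtSVPc, SVP/AGL24 and the relative SVP1 in each of the 15 libraries, by group; points are libraries, and the bar beside them is the mean ± SD of 3. MtSVPc lies at or under 3.14 CPM in leaves and between 18.0 and 36.0 CPM in apices, and SVP/AGL24 lies between 18.1 and 23.4 CPM in leaves and at or under 11.1 CPM in apices.

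Leaf was first set against apex, within each genotype and as the mean of both, in the plants 15 days old. A transcript was called when edgeR's quasi-likelihood test gave a Benjamini-Hochberg adjusted p of at most 0.05 over all transcripts tested and the change was at least 2-fold. In leaf, MtSVPc fell by 4.09 on the log2 scale in Mtsoc1a (SE 0.51, adjusted p = 4.57e-05), which was 17.1-fold lower, and fell by 3.99 in WT (SE 0.52, adjusted p = 5.86e-05), which was 15.8-fold lower. For the mean of both genotypes the log2 change was -4.04 (95% interval -4.85 to -3.23, adjusted p = 1.95e-06). Of the transcripts tested, 8.07% had a lower log2 change than MtSVPc.

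SVP/AGL24 rose in leaf, with a log2 change of 2.62 in Mtsoc1a (SE 0.25, adjusted p = 4.4e-06) and 1.34 in WT (SE 0.23, adjusted p = 0.000531), or 6.14-fold and 2.53-fold. The mean of both genotypes was 1.98 (95% interval 1.60 to 2.35, adjusted p = 1.18e-06). Thus 2 of 2 members were called in each contrast, against a background in which 41.6% of transcripts were called in Mtsoc1a, 42.1% in WT and 46.9% for the mean. A call alone was therefore common between these tissues.

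The size of the SVP/AGL24 difference rested on the scaling. The TMM factors behind the CPM values, computed over all 15 libraries, were 0.606 to 0.687 in leaf and 1.33 to 1.40 in apices of the same age. The tests computed their own TMM factors, on the filtered transcripts of the libraries in each fit. Without composition scaling the median change of all transcripts moved to -1.28 in Mtsoc1a and -1.17 in WT, against -0.09 and -0.13 with it. The calls then split into 2465 higher and 12985 lower in Mtsoc1a, against 5213 and 5880 with it, and into 2709 higher and 12089 lower in WT, against 5180 and 6051. For the mean of both genotypes they split into 2834 higher and 13602 lower, against 5640 and 6870. As CPM of the plain library total, SVP/AGL24 was at 13.9 ± 1.37 in Mtsoc1a leaf against 5.17 ± 1.21 in Mtsoc1a apex, and at 13.0 ± 1.30 in WT leaf against 10.6 ± 3.69 in WT apex. SVP/AGL24 was then still called in Mtsoc1a (log2 change 1.43) but not in WT (0.28, adjusted p = 0.332 by edgeR), while MtSVPc was called lower in leaf in both genotypes under every alternative tried. The size of the MtSVPc difference moved too: over the alternatives its log2 change ranged from -5.31 to -3.76 in Mtsoc1a and from -5.03 to -3.81 in WT.

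The summed photosynthesis markers named above were higher in leaf too, with 22 of 24 transcripts called higher in Mtsoc1a and 19 of 24 in WT. Their part in the members' differences was not tested. In whole organs, fewer cells that use a gene and less RNA per cell cannot be told apart. MtSVPc in Mtsoc1a leaf rested most on replicate 2: without it the log2 change against apex was -5.04.

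Whether the leaf and apex difference itself depended on MtSOC1a was asked of the interaction term. For SVP/AGL24 the contrast was larger in Mtsoc1a by 1.28 on the log2 scale (95% interval 0.55 to 2.01), but the adjusted p of 0.352 by edgeR missed the threshold. Leaving out 1 library moved this value between 0.99 and 1.46, and it was not called in any of these fits. For MtSVPc the difference of contrasts was -0.11 (95% interval -1.61 to 1.39, edgeR adjusted p = 1.00). So 0 of 2 members were called by edgeR, in a comparison with 9 calls in all, or 0.0337% of the transcripts. An unadjusted p below 0.05 was found for 1 member and for 2136 of 26683 transcripts, or 8.01%. DESeq2 called SVP/AGL24 (1.25, adjusted p = 0.0351) and 381 transcripts in all.

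**Figure D2:**
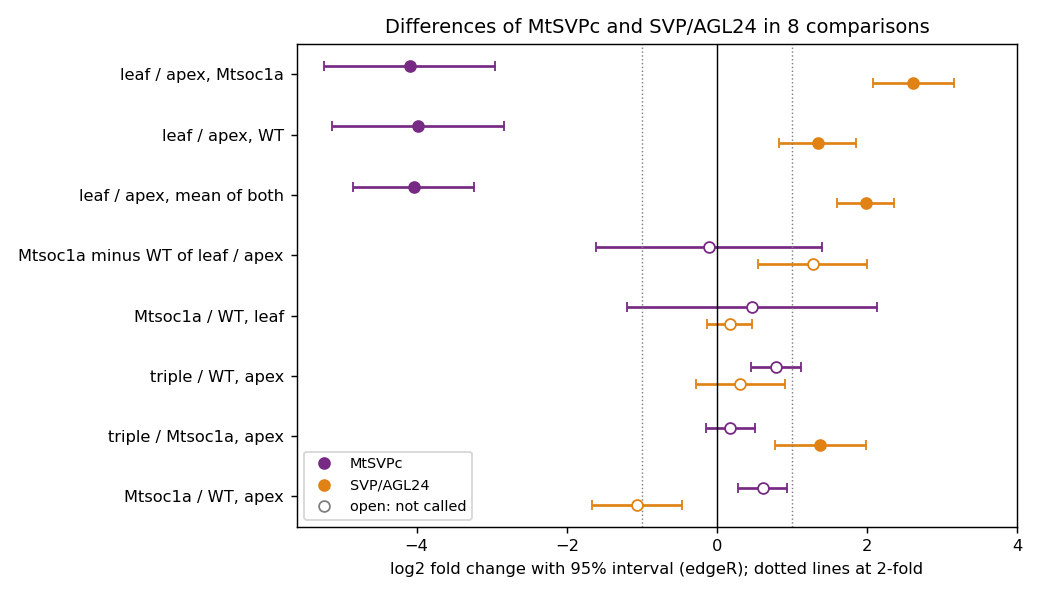
Log2 fold change of MtSVPc and SVP/AGL24 in the 8 comparisons (horizontal axis) with its 95% interval from edgeR; filled points passed both thresholds, and dotted lines mark 2-fold. MtSVPc is about 4 log2 units lower in leaf in both genotypes, SVP/AGL24 is higher in leaf by 2.62 in Mtsoc1a and 1.34 in WT, and of the comparisons between genotypes 1 has a filled point, SVP/AGL24 in the triple mutant against Mtsoc1a.

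The apex libraries were then compared between genotypes. The triple mutant and Mtsoc1a were each set against the same 3 WT libraries, so these comparisons share their controls. MtSVPc was higher in both mutants, by 0.79 on the log2 scale in the triple mutant (1.72-fold, 95% interval 0.45 to 1.12) and by 0.61 in Mtsoc1a (1.52-fold, 95% interval 0.28 to 0.94). The adjusted p by edgeR was 0.00937 for the triple mutant, where the change stayed below the 2-fold threshold, and 0.275 for Mtsoc1a. In Mtsoc1a, DESeq2 put MtSVPc past the threshold on adjusted p (0.62, adjusted p = 0.0109) but below 2-fold, 1 of 14 alternatives and the only one to do so. Each mutant library was above all WT libraries, so 3 of 3 libraries showed the direction in each mutant. Separation of 3 against 3 libraries is weak evidence alone, and the share of all transcripts so separated was not counted. Between the mutants, MtSVPc differed by 0.18 (95% interval -0.15 to 0.51, edgeR adjusted p = 0.421).

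On adjusted p alone, 16.2% of transcripts passed in the triple mutant against WT, and 6.43% were called with the fold threshold. MtSVPc passed on adjusted p in 13 of 14 alternatives, the exception being a fit of all 15 libraries together (0.79, edgeR adjusted p = 0.230). In the triple mutant against WT, 18 of the 24 photosynthesis transcripts were called higher and 0 lower. The study chose their term on this same comparison, so the count is not independent evidence. Their part in the difference of MtSVPc was not tested.

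SVP/AGL24 separated the mutants. It was higher in the triple mutant than in Mtsoc1a by 1.38 on the log2 scale (2.60-fold, SE 0.27, 95% interval 0.78 to 1.98, edgeR adjusted p = 0.00795). It was called in that comparison under each of 14 alternatives, not counting removal of the fold threshold, which cannot undo a call. So 1 of 2 members was called there, against 9.81% of all transcripts, or 3.04% called higher. In this comparison 20 of the 24 photosynthesis transcripts were also called higher, and their part was not tested. The study chose their term on the triple mutant and WT apices, so the count is not independent of the triple mutant libraries.

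Against WT the values of SVP/AGL24 were 0.31 in the triple mutant (95% interval -0.28 to 0.90, edgeR adjusted p = 0.472) and -1.07 in Mtsoc1a (95% interval -1.66 to -0.47, edgeR adjusted p = 0.281). WT apex replicate 2 raised the WT mean: without it these values were 0.63 and -0.75, with neither called. In Mtsoc1a against WT, 0 of 2 members were called by edgeR although both had an unadjusted p below 0.05, as had 2615 of 25935 transcripts, or 10.1%. Only 4 transcripts were called in that comparison, 0.0154% of those tested. The disrupted gene was not among them, since the first MtSOC1a transcript had a log2 change of -4.45 with an edgeR adjusted p of 0.186. DESeq2 called 358 transcripts, SVP/AGL24 among them (-1.06, adjusted p = 0.0294).

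In leaf, Mtsoc1a was compared with WT in 6 libraries. SVP/AGL24 differed by 0.17 (95% interval -0.13 to 0.47, edgeR adjusted p = 0.783), so a 2-fold change lay outside its interval. MtSVPc differed by 0.47 (95% interval -1.20 to 2.14, edgeR adjusted p = 0.908), an interval that holds changes above 2-fold in either direction at these low counts. Neither was called by edgeR or DESeq2 and neither had an unadjusted p below 0.05, against 9.19% of the transcripts tested. By edgeR 11 transcripts were called in all, 0.05% of those tested.

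Levels of different genes were compared as TPM (transcripts per 1000000), which are corrected for transcript length and were deposited as 1 mean per group. The mean of Mtsoc1a apex held replicates 1 and 2 only, since 1433 of 1433 transcripts counted in replicate 3 alone were listed at 0. In leaf, SVP/AGL24 was at 16.3 TPM in Mtsoc1a and 15.5 in WT, or 12.1 and 14.3 times the 1.35 and 1.08 TPM of MtSVPc. In apices the order was reversed: MtSVPc was at 60.0 TPM in the triple mutant, 60.4 in Mtsoc1a and 33.9 in WT, which was 3.84, 10.5 and 2.78 times the 15.6, 5.73 and 12.2 TPM of SVP/AGL24. MtSVPc ranked above 42.4% of the transcripts listed above 0 in WT leaf, and above 91.7% of them in the triple mutant apex.

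**Figure D3:**
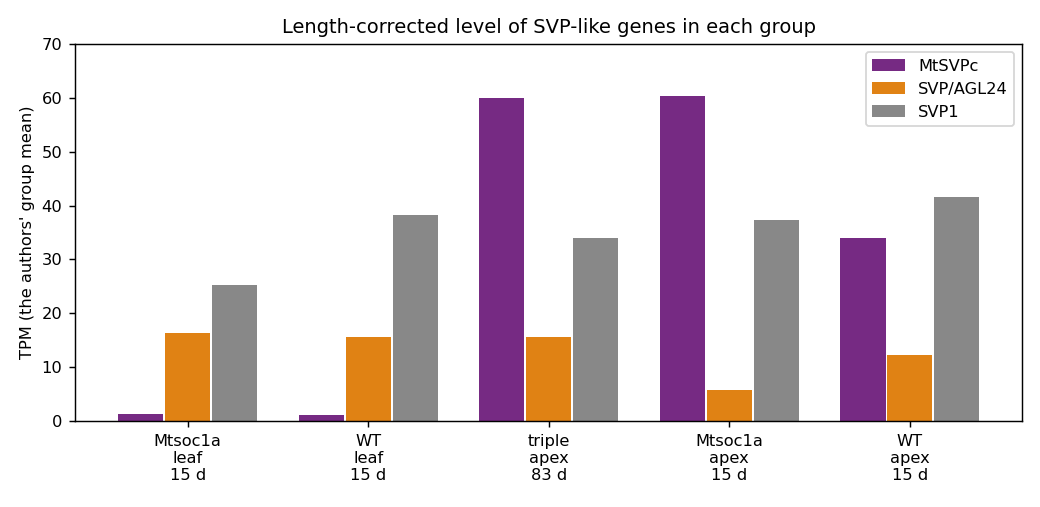
TPM of MtSVPc, SVP/AGL24 and SVP1 in each group (the authors' group means, with no error; Mtsoc1a apex is a mean of 2 libraries). MtSVPc is the lowest bar in leaf and the highest in the mutant apices, and SVP1 stays between 25.3 and 41.6 TPM.

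The ratio of MtSVPc to SVP/AGL24 counts within a library needs no scaling between libraries. In leaf it was 0.0595, 0.152 and 0.0228 in Mtsoc1a and 0.0848, 0.0670 and 0.0402 in WT, so SVP/AGL24 had the larger count in every leaf library. In apices it was 3.23, 3.45 and 3.81 in the triple mutant, 12.5, 7.43 and 5.71 in Mtsoc1a and 3.18, 1.73 and 3.21 in WT. All Mtsoc1a apices lay above the other apices, and the lowest triple mutant ratio (3.23) was barely above the highest of WT (3.21). Other pairs of genes were not examined this way, and edgeR called neither member in Mtsoc1a apex against WT.

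A pair of other loci carries an SVP annotation. SVP1 (Medtr5g032520) was more even over the groups, at 30.9 ± 3.22 CPM in Mtsoc1a leaf, 44.2 ± 5.80 in WT leaf, 19.6 ± 2.56 in the triple mutant apex, 21.7 ± 1.66 in Mtsoc1a apex and 24.8 ± 3.45 in WT apex. Its leaf against apex change was 0.59 in Mtsoc1a and 0.84 in WT, below the 2-fold threshold (edgeR adjusted p = 0.00319 and 0.000251), and it turned to -0.61 and -0.20 without composition scaling. By TPM it was the most abundant of the SVP genes in leaf and in WT apex (41.6), and second to MtSVPc in the mutant apices (34.0 in the triple mutant, 37.3 in Mtsoc1a).

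The SVP homolog Medtr5g032150 was low, with group means of 1.03 to 5.29 CPM for its first transcript. In leaf that transcript fell by 1.72 on the log2 scale in Mtsoc1a and fell by 1.43 in WT (edgeR adjusted p = 0.00375 and 0.0098). Its second transcript had 0 counts in 8 of 15 libraries, and reads were divided between both by estimate. Neither relative was called between genotypes by edgeR.

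The other MADS-box genes of the flowering list, MtSOC1a, MtSOC1b and MtSOC1c included, were counted beside the members. In leaf against apex, 10 of 26 transcripts were called higher and 1 lower in Mtsoc1a, and 9 higher and 3 lower in WT. Their median log2 change was 0.89 in Mtsoc1a and 0.20 in WT, and both medians turned negative without composition scaling (-0.23 and -0.84). The floral organ identity genes SEP4 (Medtr4g109810), SEP3a and AGa were among those higher in leaf, whereas SEP3b was lower. In the triple mutant, 10 of 23 transcripts were called higher and 3 lower against Mtsoc1a, the disrupted MtSOC1a giving 2 of the higher ones, and 4 higher and 1 lower against WT. Of all transcripts, 41.6% were called in leaf against apex in Mtsoc1a, 42.1% in WT, 9.81% in the triple mutant against Mtsoc1a and 6.43% against WT. In Mtsoc1a apex against WT, edgeR called 0 of 23, with 9 at an unadjusted p below 0.05, while DESeq2 called 1 higher and 6 lower. In Mtsoc1a leaf against WT, edgeR called 0 of 20, with 3 at an unadjusted p below 0.05, while DESeq2 called 2 lower.

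The FT, TFL1, FD and LFY genes do not all act in 1 direction, and the study calls MtFTa2 a candidate repressor. Of their 8 transcripts tested, 1 was called higher in leaf and 3 lower in Mtsoc1a, and 2 higher and 3 lower in WT. In the triple mutant, 1 was higher and 1 lower of 8 against Mtsoc1a, and 0 higher and 1 lower against WT. Of the 2 TEM genes, relatives of floral repressors in Arabidopsis, both were lower in the triple mutant against either group. Of 3 GA20OX genes, which encode a gibberellin biosynthesis enzyme, 2 were lower in the triple mutant against Mtsoc1a and 1 against WT. In leaf, 1 of 2 TEM genes was higher in Mtsoc1a and 0 lower, 1 was higher and 1 lower in WT, and 1 of 3 GA20OX genes was higher and 1 lower in each genotype. Without composition scaling 0 TEM genes were called higher in leaf in either genotype, with 0 lower in Mtsoc1a and 1 lower in WT. These lists are small, and their counts stand against the same shares of all transcripts, 41.6% and 42.1% between tissues and 9.81% and 6.43% for the triple mutant.

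The transcripts whose log2(CPM + 1) followed each member most closely over the 15 libraries were sought among 27340 transcripts. These correlations mostly reflect tissue, which the libraries share, and are a description. MtSVPc itself had r = -0.84 with SVP/AGL24. Nearest to MtSVPc were Medtr4g125670.1 (r = 0.993) and Medtr7g053290.1 (r = 0.992), which the files do not pair with a name. Nearest to SVP/AGL24 were the unnamed Medtr5g082070.1 (r = 0.968) and Medtr2g035460.1 (r = 0.959).

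Among 44 transcripts of the listed flowering genes, MtSVPc was closest to MtLFY (r = 0.891), MtTFL1c (r = 0.887) and AGL19 (r = 0.797). In Arabidopsis, LFY specifies floral meristems and TFL1 keeps the inflorescence meristem indeterminate. MtLFY had 0 counts in leaf, and averaged 1.59 CPM in the triple mutant apex, 2.69 in Mtsoc1a apex and 3.39 in WT apex, so its means over the apices ran in the reverse order of those of MtSVPc. SVP/AGL24 was closest to SEP4 (r = 0.897), SEP3a (r = 0.865) and AGa (r = 0.847). AGa, an AGAMOUS homolog, averaged 10.7 CPM in Mtsoc1a leaf and 12.6 in WT leaf, and at most 0.0808 CPM in any apex group.

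**Figure D4:**
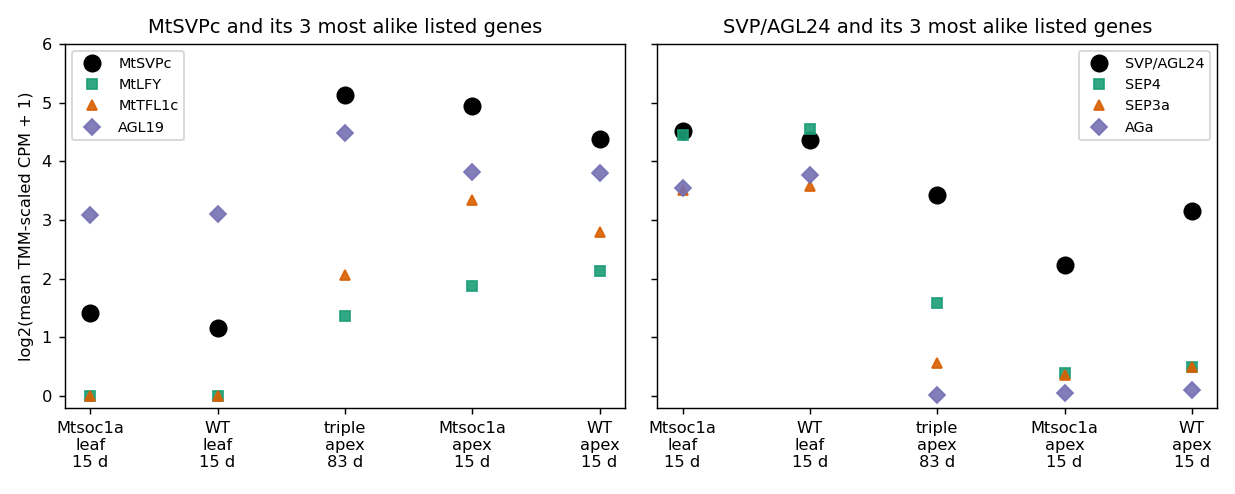
Group means of MtSVPc (left) and SVP/AGL24 (right) with the 3 listed flowering genes most alike over 15 libraries, as log2(mean TMM-scaled CPM + 1). MtLFY and MtTFL1c are at 0 in leaf and above it in apices, as MtSVPc is higher there, and SEP4, SEP3a and AGa are high in leaf and near 0 in Mtsoc1a and WT apices, where SVP/AGL24 keeps 3.73 and 7.89 CPM.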

How the data were processed

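RNA was extracted from leaves or shoot apices, and strand-specific polyA libraries were sequenced as paired ends. The authors trimmed reads with fastp, assigned them to A17 transcripts (release Mt4.0v2) with Salmon 0.8.2, and imported the output with tximport. The deposited estimated counts per transcript were used unnormalized. They were rounded, which changed 17.3% of transcripts in Mtsoc1a apex replicate 3 and none in the other libraries. The deposited TPM values were 1 mean per group by the authors and entered no test. Because R108 reads were assigned to A17 transcripts, differences in sequence between the accessions may lower counts in every group.

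Transcripts were filtered with filterByExpr (minimum count 10), scaled by TMM and tested with edgeR 4.0.16 in R 4.3.3, using robust quasi-likelihood fits of the 12 libraries from plants 15 days old (leaf against apex), the 9 apex libraries or the 6 leaf libraries. Adjusted p-values (Benjamini-Hochberg) cover all transcripts tested. SEs were derived from the log2 change and its F statistic. DESeq2 1.42.0, other scalings, filters, gene sums, the replicate block, other sets of libraries and leaving out each library were alternatives. Library totals without composition scaling were added after seeing the data. The fits were tested on simulated data. Replicates were labelled as biological and described as pools from several plants, and no libraries held identical values (105 pairs). Whether any pools shared plants is not stated, and pairing of the leaf libraries by replicate number was not excluded. The members and lists were chosen with earlier results of these data known. Named genes were all member transcripts, the relatives, called list members where a result turned on them, and the 3 transcripts most correlated with each member, of which unnamed ones are limited to the nearest. Reference annotations matched 0 of the loci, so names follow the study's tables, and no genome coordinates are given.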

Additional observations from a re-analysis of the deposited data

How the results depend on the processing

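For the 16 member results (2 genes in 8 comparisons), 250 of 258 alternative values kept their direction and side of the threshold. These include removal of the fold threshold, which cannot undo a call. Without composition scaling SVP/AGL24 in leaf against apex was 0.28 in WT (adjusted p = 0.332) and 0.86 for the mean of both genotypes, which missed the 2-fold threshold. On adjusted p alone MtSVPc passed in the triple mutant against WT (0.79). With DESeq2, SVP/AGL24 passed in the interaction (1.25) and in Mtsoc1a apex against WT (-1.06). Leaving out 1 library moved MtSVPc between -1.03 and 0.26 in the interaction (0.26 without Mtsoc1a leaf replicate 3, 0.01 without Mtsoc1a apex replicate 1) and between -0.40 and 0.91 in Mtsoc1a leaf against WT (-0.40 without Mtsoc1a leaf replicate 2). The cause was not tested. Among relatives, SVP1 in leaf against apex turned to -0.61 in Mtsoc1a, -0.20 in WT and -0.40 for the mean without composition scaling, and the first transcript of Medtr5g032150 turned to 0.0673 in the interaction with counts summed to genes. Its second transcript turned to 1.93 in Mtsoc1a apex against WT with the replicate block. Leaving out 1 library moved the second transcript between -2.07 and 0.12 in Mtsoc1a leaf against apex and between -1.43 and 1.29 in Mtsoc1a apex against WT, and the first between -0.61 and 0.12 in the triple mutant against Mtsoc1a.

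The count of transcripts called varied more than the member results. DESeq2 called 381 transcripts in the interaction against 9, 358 in Mtsoc1a apex against 4, and 226 in Mtsoc1a leaf against 11. Sums per gene gave 14, 51 and 47. All 15 libraries in 1 fit gave 20 in the interaction and 133 in Mtsoc1a leaf, and no filter gave 19 there, library totals 5. With only the groups compared, 2 were called in Mtsoc1a apex. Adjusted p alone passed 4191 in the triple mutant against WT (1667 called) and 5953 against Mtsoc1a (2544 called). The triple mutant against WT had 992 calls without triple mutant replicate 3, 1104 without triple mutant replicate 2 and 1093 without WT apex replicate 2. Leaving out 1 library gave 0 to 38 calls in the interaction (38 without Mtsoc1a leaf replicate 1, 0 without WT apex replicate 1 or 3), 6 to 14 in Mtsoc1a apex (14 without Mtsoc1a apex replicate 3) and 2 to 10 in Mtsoc1a leaf (2 without Mtsoc1a leaf replicate 3 or WT leaf replicate 1 or 2). Correlations of same-replicate deviations were -0.13 to 0.22 against -0.22 to 0.24 for others (leaf groups: -0.01 to 0.22 against -0.22 to 0.03). With replicate number as block no member call changed. The calls were 0 in the interaction, 1 in Mtsoc1a apex and 47 in Mtsoc1a leaf. With a pseudocount of 0.1, MtFDa took the place of AGL19 beside MtSVPc, and MtFTb1 that of AGa beside SVP/AGL24. MtSVPc in leaf rests on 12 to 68 counts a library, which limits what could be detected there.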
